A study of Mus musculus with 171 samples.

Results

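Mmp2 and Timp2 are a matrix protease and its inhibitor, and their RNA was followed over 88 mouse tissue sources on spotted arrays. The members were all probes that the platform annotation assigns to either gene, 4 of 8734 probes, and 2 of the 5755 genes named on the array. Each array compared RNA of 1 source with a universal mouse reference RNA in the other channel, and 83 sources had 2 arrays and 5 had 1. The files give a log ratio per probe, and 8709 probes had a median over the arrays within 0.001 of 0, so that 0 stands for the usual level of a probe and levels of different probes or genes cannot be compared.

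Mmp2 encodes gelatinase A, a secreted zinc protease that cleaves denatured collagen, type IV collagen of basement membranes and fibronectin. It leaves the cell as an inactive proenzyme. Timp2 encodes a small secreted inhibitor of metalloproteinases with a double role, since at the cell surface it bridges the proenzyme to Mmp14, the membrane protease that starts its activation, while in excess it blocks the active enzyme. Fibroblasts and other mesenchymal cells are the usual makers of both proteins, and the pair is known for matrix turnover in joints, in the cycling uterus and in growing organs. An RNA level says nothing about how much of the protease is active.

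The sources compared were synovium (normal, acute arthritis, chronic arthritis), uterus (virgin in diestrus or estrus, and pregnant at day 4.5), and organs sampled before and after birth. Lung was taken at embryonic days (E) 13.5, 16.5 and 18.5, at postnatal days (P) 1, 5, 12 and 24 and in adults. Small intestine was taken at E16.5, P1 and P14, heart at E14.5 (wild type), kidney at E18.5 and P2, liver at E14 and P14, skin at E16 and P2 (days 2 to 3 in the labels), bladder at P1 (male) and brain at E18.5 (wild type) and P2, with adult organs beside most of them. Injury and remodelling sources were kidney after folic acid (strain FVB/N), liver 6 and 24 h into regeneration with a 6 h sham, ileum after bowel resection or sham surgery, transgenic hyperdynamic heart with its control, lymph node with or without complete Freund's adjuvant, lactating and involuting mammary gland, and awn hair in anagen and catagen. Tumours came from duodenum, jejunum and colon, and were set against normal duodenum and 2 proximal jejunum sources (1 labelled wild type) or against cecum, proximal colon and distal colon. Spleen is labelled C57, and the labels of the other sources compared here give no strain. How arthritis was induced, how the tumours arose and whether tissue was pooled is not given in the sources used here. Hyperdynamic heart is labelled HDmekt and its control CtrlMek, with no more on the transgene or its promoter. Whether both arrays of a source hold RNA of different animals is unknown, and p-values therefore reflect array to array spread that may be technical. In whole tissue, fewer cells of a type and less RNA per cell cannot be told apart.

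Log base and direction of the ratio are not stated. The likely reading, a base 2 logarithm of tissue over reference, rests on marker genes: the mean of 5 skeletal muscle markers was highest of the 88 sources in skeletal muscle (3.54), that of 5 neuron markers in hippocampus (3.84) and that of 6 erythroid markers in liver E14 (2.77). A less clear case was spleen, where 4 T and B cell markers averaged 1.47 at rank 5, below 2.92 in adjuvant-stimulated lymph node. If the ratio ran the other way, the sign of every level and difference below would turn. Of 14535 pairs of arrays, 356 correlated below -0.3 over all probes, which centring each probe allows. Arrays held 5137 to 8658 values, their medians ran from -0.92 to 0.24, and the 2 arrays of 1 source had a correlation of 0.38 to 0.99 (median 0.87). Codes in the array titles take 3 forms, here called the AC lot (69 arrays), the AF lot (86) and the # form (16), and 22 sources have arrays from 2 lots. Titles of the # form name a comparator before the source. None of the marker sources above had # arrays, so the direction of the ratio was not checked on those arrays.

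Both genes had 2 probes. For Mmp2, probe 402738 had a value on every array and serves as the main probe, while probe 762791 had 156 values, with the 15 gaps all on arrays of the # form. For Timp2, probes 831964 (the main probe) and 902923 each had a value on every array. Main probes were set by the number of values and then by the lower probe number. Between arrays of a source the pooled SD was 0.32 and 0.15 for the Mmp2 probes and 0.21 and 0.29 for the Timp2 probes. Over 80 sources the Mmp2 probes correlated with r = 0.67 and over 88 sources the Timp2 probes with r = 0.67, points that share arrays and reference, so the probes of a gene agree in part only.

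The RefSeq promoter table (GRCm38.p6) held Timp2, and the 250 bases before its start, chr11:118355412-118355661 on the minus strand, are shown because Timp2 RNA differed between many of the sources below. Capitals mark a GC box, GGGCGG, which begins 37 bases before the start.
Timp2: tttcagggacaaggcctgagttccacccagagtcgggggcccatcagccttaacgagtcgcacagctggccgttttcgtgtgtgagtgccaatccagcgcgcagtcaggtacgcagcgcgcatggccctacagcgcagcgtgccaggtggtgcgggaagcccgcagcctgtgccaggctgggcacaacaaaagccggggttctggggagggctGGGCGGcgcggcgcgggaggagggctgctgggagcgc
Its G and C content was 68.0%, above that of 87.8% of the 32851 promoter windows of the same length. On both strands, 32.7% of those windows hold GGGCGG. The AP-1 motif TGANTCA (in 6.7% of windows), the TATA box TATAAA (12.4%) and the AP-2 motif GCCNNNGGC (13.7%) had no match in these letters.

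In synovium, both genes were far higher in arthritis than in normal tissue. On the main Mmp2 probe the normal arrays read 0.20 and 0.22, the acute ones 2.84 and 3.00 and the chronic ones 3.35 and 3.24. Arthritis arrays thus lay well apart from normal ones, and chronic and acute arthritis rank first and second of all 88 sources on this probe (6 and 13 of 80 on the other). The acute minus normal difference was 2.71 ± 0.31 (SE, n = 2 and 2, adjusted p = 5.1e-11 by limma with Benjamini-Hochberg adjustment over all probes tested), which is 6.55-fold on a base 2 scale. Chronic minus normal was 3.08 ± 0.31 (adjusted p = 4.6e-13). The other Mmp2 probe gave the same order, with normal arrays at -0.85 and -0.96, acute ones at 0.94 and 0.96 and chronic ones at 1.27 and 1.13. Its differences were 1.85 ± 0.16 (adjusted p = 6.6e-16) in acute and 2.10 ± 0.16 (adjusted p = 2.1e-18) in chronic arthritis.

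For Timp2 the main probe read -0.30 and -0.33 in normal synovium, 1.80 and 1.62 in acute and 2.31 and 2.01 in chronic arthritis. These groups did not overlap either, and the differences from normal were 2.03 ± 0.21 (adjusted p = 4.2e-13) in acute and 2.48 ± 0.21 (adjusted p = 5.3e-17) in chronic arthritis. The second Timp2 probe moved less, from 0.40 and 0.35 in normal to 1.24 and 1.18 in acute and 1.97 and 1.70 in chronic arthritis. It passed the threshold in chronic arthritis (1.46 ± 0.29, adjusted p = 0.00024) and missed it in acute arthritis (0.83 ± 0.29, adjusted p = 0.053, or 0.90 with adjusted p = 0.033 after each array was centred on its median, where 11.7% of probes were called). So 3 of the 4 probes rose in acute and 4 of 4 in chronic arthritis, where 8.46% and 3.06% of all probes were called higher, and 9.06% and 3.82% were called in either direction.

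Whether protease and inhibitor changed by different amounts was tested on their per-array difference. Mmp2 minus Timp2 moved by 0.68 ± 0.32 (adjusted p = 0.19) in acute and 0.60 ± 0.32 (adjusted p = 0.38) in chronic arthritis, so neither passed. The acute result passes under 3 other settings (0.89 after quantile normalization, 0.85 with the mean of both probes, 0.68 in a fit of the compared arrays alone), and the chronic one in the last of these. Acute and chronic arthritis did not differ by the test on any probe, with 1.09% of probes called: the acute minus chronic differences were -0.37 ± 0.31 and -0.25 ± 0.16 for Mmp2 and -0.45 ± 0.21 and -0.63 ± 0.29 for Timp2, with adjusted p between 0.44 and 0.78. All 4 probes nevertheless read higher on both chronic arrays than on both acute ones.

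**Figure D1:**
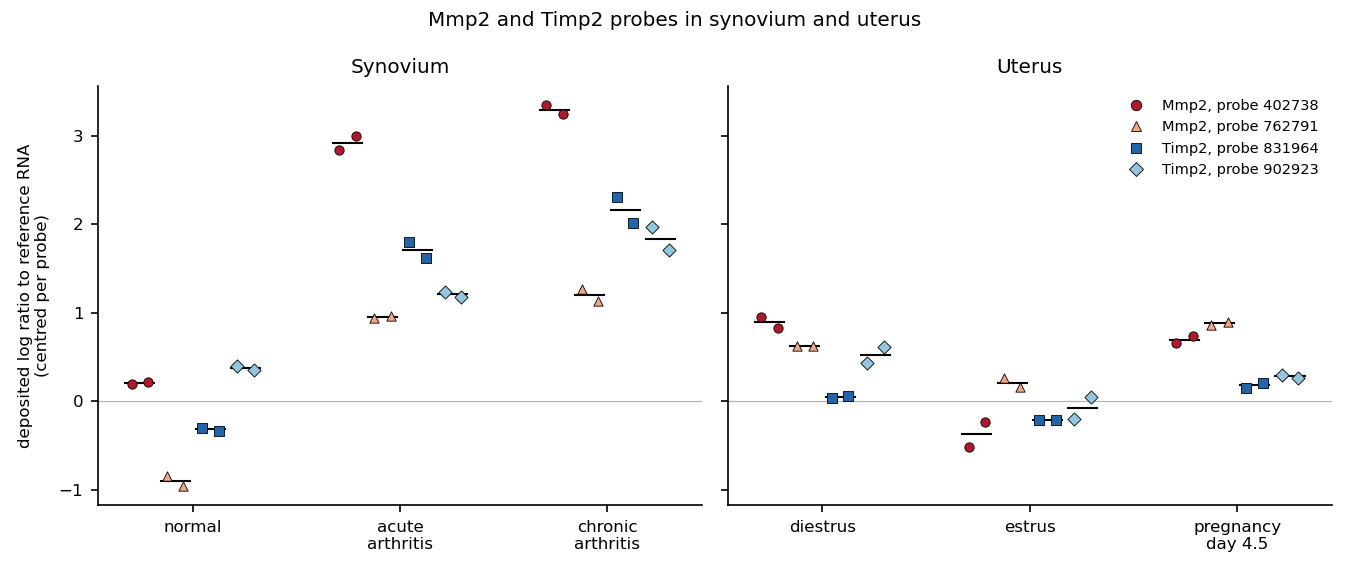
Deposited log ratio (vertical axis, centred per probe) of both Mmp2 and both Timp2 probes in synovium and uterus; each point is 1 array and each bar the mean of 2 arrays. All 4 probes sit higher in both kinds of arthritis than in normal synovium, and in uterus the main Mmp2 probe falls from 0.95 and 0.83 in diestrus to -0.51 and -0.23 in estrus.

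Other genes of the pathway were taken from lists of proteases, inhibitors, substrates and regulators, of which the array holds a part (2 of 22 other metalloproteinases, 2 of 4 inhibitors). Neither the activator Mmp14 (-0.11 ± 0.29, adjusted p = 0.82) nor the inhibitor Timp3 (0.39 ± 0.27, adjusted p = 0.40) changed in acute arthritis by the test. The other listed metalloproteinase on the array, Mmp23, rose there by 0.45 ± 0.13 (adjusted p = 0.017). Of 16 matrix substrates, 7 rose and none fell in acute arthritis, where 8.46% of all probes were called higher. The list median was 1.0 against -0.08 over all genes. Col1a1, a chain of type I collagen, rose by 3.37 ± 0.36, Col5a2, a type V collagen chain, by 2.45 ± 0.27, and Fn1, fibronectin, by 2.39 ± 0.29. In chronic arthritis 8 of 16 rose, where 3.06% of all probes were called higher, with a median of 0.65 against -0.04. Anxa2, a cell surface partner of plasminogen, rose in both (1.06 ± 0.22 and 1.10 ± 0.22), and Lox, the collagen crosslinking enzyme, in acute arthritis (1.94 ± 0.44).

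Markers of other cells moved with arthritis as well. Of all probes, 8.46% were called higher in acute and 3.06% in chronic arthritis. All 7 fibroblast markers on the array, of which Col1a1 and Col3a1 are also substrates, rose in acute and 4 of 7 in chronic arthritis. Their mean level per array ran from 0.67 to 0.68 in normal, 2.73 to 2.85 in acute and 2.56 to 2.58 in chronic synovium. Macrophage markers rose in 6 of 7 cases in acute and 1 of 7 in chronic arthritis, with mean levels from -0.22 to -0.15, 1.62 to 1.64 and 0.31 to 0.43 in the same order, and 3 of 4 neutrophil markers rose in both. Skeletal muscle markers stood at 1.91 to 1.93 in normal, 1.68 to 1.75 in acute and 2.16 to 2.36 in chronic samples, above their usual level in each group. The 3 synovial lining markers, which should define the tissue, stood near or below their usual level (-0.09 to -0.04, -0.29 to -0.18 and -0.27 to -0.23), and 1 of them, Cdh11, rose in acute arthritis. What part these cells have in the Mmp2 and Timp2 values was not tested. All 6 synovium arrays belong to the AC lot.

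In uterus the main Mmp2 probe was lower in estrus than in diestrus, and Timp2 was called in no comparison. Main probe arrays for Mmp2 read 0.95 and 0.83 in diestrus, -0.51 and -0.23 in estrus and 0.66 and 0.74 at day 4.5 of pregnancy. Estrus lay below both other stages without overlap. Because centring each array on its median moved the median of all probes by more than 0.1 here, centred values come first: estrus minus diestrus was -1.07 ± 0.33 (adjusted p = 0.017, and -1.26 ± 0.31 with adjusted p = 0.0021 as deposited), where 13.4% of probes were called centred and 15.1% as deposited. Without estrus replicate 1 the deposited difference was -1.12 with adjusted p = 0.065. The second Mmp2 probe did not pass (diestrus 0.62 and 0.63, estrus 0.26 and 0.16, difference -0.22 ± 0.17 centred, adjusted p = 0.48).

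Timp2 arrays read 0.03 and 0.06 in diestrus, -0.21 and -0.22 in estrus and 0.15 and 0.20 in pregnancy on the main probe. The estrus minus diestrus difference was -0.07 ± 0.23 centred (adjusted p = 0.91). The Mmp2 difference minus the Timp2 difference was -1.0 ± 0.32 (adjusted p = 0.019), a call that is lost without either diestrus replicate or estrus replicate 1 (adjusted p = 0.14, 0.079 and 0.22) and with the mean of both probes (-0.41, adjusted p = 0.20). From estrus to pregnancy the second Mmp2 probe rose (0.57 ± 0.17 centred, adjusted p = 0.048, from 0.26 and 0.16 to 0.86 and 0.90), with 2.93% of probes called. The main probe gave 0.97 ± 0.33 centred (adjusted p = 0.092) and 1.07 ± 0.31 as deposited (adjusted p = 0.041, 2.77% of probes called), and lost its call without any 1 of the 4 arrays. Pregnancy minus diestrus was called on no probe of either gene, with 9.92% of all probes called, at an adjusted p of 0.37 to 0.82.

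Of the other lists in estrus against diestrus, 1 of 16 substrates rose (Lama5, a laminin chain, 1.0 ± 0.30 centred) and none fell. Thbs2, a matricellular protein through which cells clear Mmp2, fell by 1.45 ± 0.38, as did Adam19 by 1.19 ± 0.22 and Adam12 by 0.98 ± 0.35, both membrane proteases. Adam10, another of these, rose by 0.82 ± 0.20, as did Furin, a proprotein convertase, by 0.82 ± 0.18. In all, 1 of 11 ADAM proteases rose and 2 fell, and 2 of 14 tested partners and regulators rose and 3 fell. Of all probes, 13.4% were called in either direction centred. Fibroblast marker means were 1.12 to 1.20 in diestrus, 0.76 to 0.78 in estrus and 1.66 to 1.70 in pregnancy, epithelial ones 0.66 to 0.96, 1.28 to 1.55 and 1.17 to 1.40, and those of 2 smooth muscle markers, which define the uterine wall, 2.01 to 2.31, 2.17 to 2.32 and 2.61 to 2.87. The part of these shifts in the Mmp2 values was not tested.

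In lung the pair took different courses. The Mmp2 main probe read 1.24 and 1.39 at E13.5, 1.34 and 1.30 at E16.5, 0.81 and 0.86 at E18.5, and 0.84 and 0.92 at P1. It stood at 1.65 and 1.65 at P5 and 1.55 and 1.39 at P12, then at 0.53 and 0.68 at P24 and 0.58 and 0.81 in adults. On this probe Mmp2 was thus above its usual level at each age, with P5 and P12 the highest ages, at ranks 4 and 5 of the 88 sources. The second Mmp2 probe was also highest at P5 (mean 1.42), but E13.5 (1.295) and E16.5 (1.10) stood above P12 (1.09). At P24 it read 0.25 and -0.02, and in adults 0.24 and 0.08. Timp2 began near or below 0, at -0.34 and -0.14, -0.04 and -0.18, -0.14 and -0.10, and 0.00 and 0.07 for the same first 4 ages. By P5 it read 1.23 and 1.38, at P12 1.58 and 1.02, at P24 1.79 and 1.60 and in adults 1.66 and 1.46. So each Timp2 array from P5 on lay above each array up to P1.

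Adult minus P1 was 1.52 ± 0.21 for Timp2 (adjusted p = 5.1e-08, 2.88-fold on a base 2 scale) and -0.18 ± 0.31 for Mmp2 (adjusted p = 1.0), with 1.82% of probes called. Mmp2 minus Timp2 fell by 1.70 ± 0.32 (adjusted p = 0.00012). Within the AF lot, 1 adult and 2 P1 arrays, the Timp2 difference was 1.42 and that of Mmp2 -0.06. The second Timp2 probe rose less and was not called (0.62 ± 0.29, adjusted p = 0.51, from -0.01 and -0.14 to 0.73 and 0.36). Among the embryonic steps, the second Mmp2 probe fell from E16.5 to E18.5 (0.98 and 1.22 to 0.26 and 0.37, a difference of -0.78 ± 0.16, adjusted p = 0.00069) where the main probe gave -0.49 ± 0.31 (adjusted p = 0.95), with 2.29% of probes called. No probe was called from E13.5 to E16.5 (1.2% of probes called) or from E18.5 to P1 (0.174%). The steps to P5, P12 and P24 were not tested and stand as values.

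Of 16 substrates, 3 fell from P1 to adult lung and none rose, with 1.82% of all probes called in either direction. Fn1 fell by 2.99 ± 0.29, Eln, elastin, by 2.29 ± 0.34, and Col6a1, a type VI collagen chain, by 1.54 ± 0.23. Fibroblast marker means were 0.36 to 0.61 at P1 and 0.38 to 0.71 in adults, which overlap. At P5 (0.98 to 1.10) and P12 (1.15 to 1.16) they stood above every other age, and their part in the Mmp2 and Timp2 values was not tested. Mmp14 gave -0.002 ± 0.29 and Timp3 -0.55 ± 0.27, neither called.

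**Figure D2:**
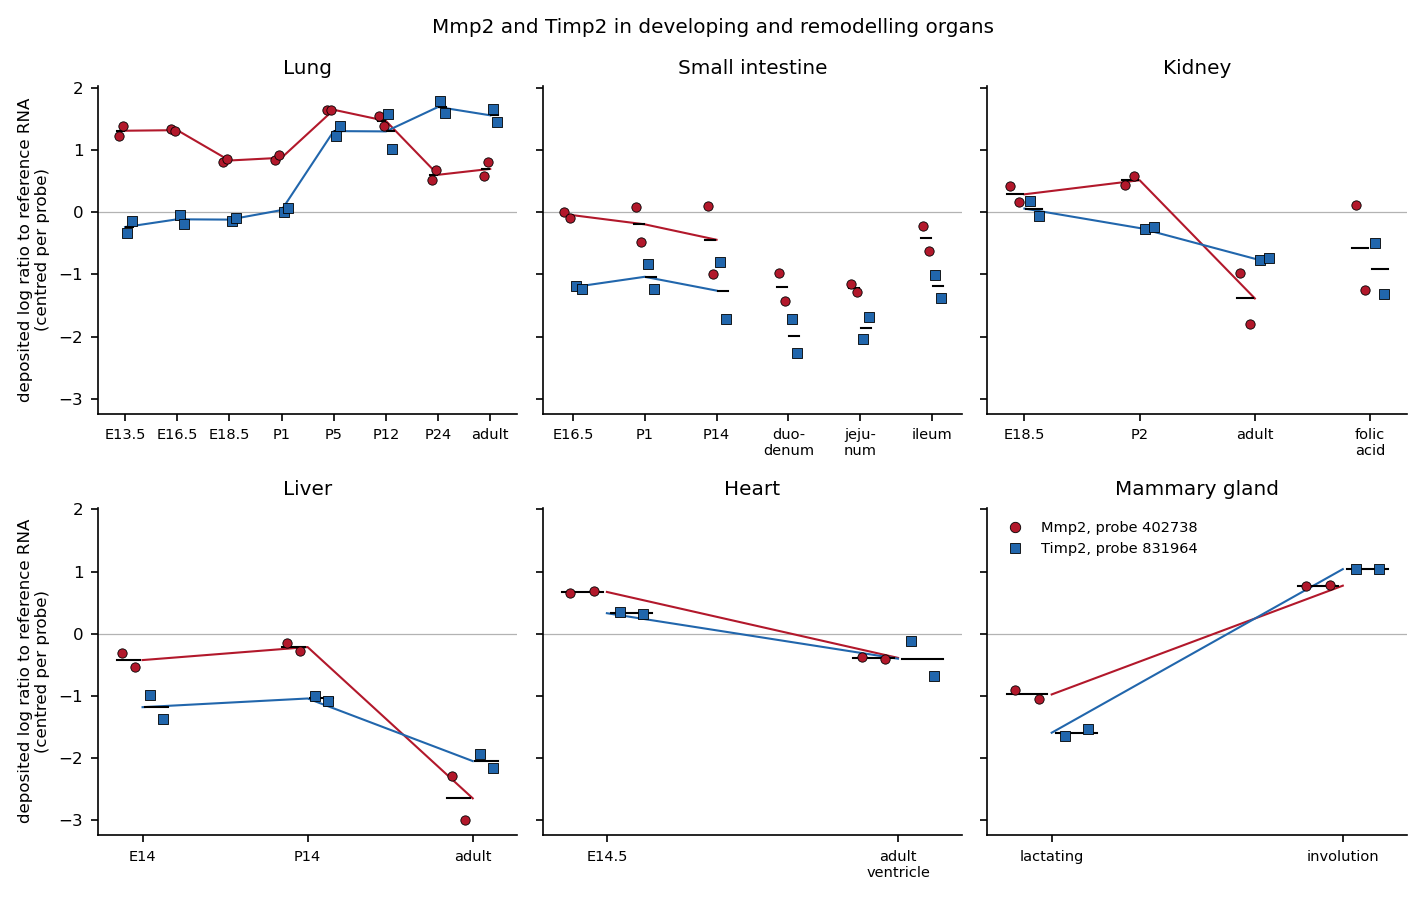
Deposited log ratio (vertical axis) of the main Mmp2 and Timp2 probes by age or state in 6 organs; points are arrays, bars the means of 2 arrays, and lines join means of successive ages or states. In lung, Timp2 arrays from P5 on (1.02 to 1.79) lie above all earlier ones (at most 0.07), and in kidney and liver Mmp2 is higher at the young ages than in adults.

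In kidney Mmp2 was higher before and just after birth. The main probe read 0.42 and 0.16 at E18.5, 0.45 and 0.58 at P2 and -0.98 and -1.79 in adults, and no young array overlapped an adult one. Centred, E18.5 minus adult was 1.55 ± 0.33 (adjusted p = 1e-04) and P2 minus adult 1.81 ± 0.33 (adjusted p = 1.1e-05), with 29.4% and 13.5% of probes called (26.8% and 14.2% as deposited). In a fit of the compared arrays alone the main probe was not called at P2 (1.90 as deposited, adjusted p = 0.091). The second Mmp2 probe gave 1.61 ± 0.17 and 1.91 ± 0.17 at E18.5 and P2 centred. Deposited differences within the AC and AF lots, 1 array against 1, were 1.39 and 1.96 at E18.5 and 1.42 and 2.38 at P2.

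Kidney Timp2 differed less. Main probe arrays read 0.19 and -0.07 at E18.5, -0.26 and -0.24 at P2 and -0.76 and -0.73 in adults. E18.5 minus adult was 0.68 ± 0.23 centred (adjusted p = 0.016) and P2 minus adult 0.40 ± 0.23 (adjusted p = 0.32), while the second probe was called at neither age (-0.28 and 0.09). The mean of both Timp2 probes gave 0.33 at E18.5 (adjusted p = 0.14). Mmp2 exceeded Timp2 in its change by 0.87 ± 0.32 (adjusted p = 0.031) at E18.5 and 1.41 ± 0.32 (adjusted p = 0.00047) at P2, and without adult replicate 2 by 0.45 and 0.98 with neither called. The E18.5 call was also lost without E18.5 replicate 1 or 2 (0.87 in both, adjusted p = 0.10 and 0.11). In a fit of the compared arrays alone, Mmp2 minus Timp2 was called at neither age (0.87 and 1.41, adjusted p = 0.12 and 0.16). Timp3, by contrast, was lower than in adults at both young ages (by 1.91 ± 0.28 and 1.74 ± 0.28 centred). Fn1 (2.77 ± 0.30 and 2.30 ± 0.30) and Col1a1 (2.14 ± 0.38 and 1.60 ± 0.38) were among 5 and 4 of 16 substrates that were higher in young kidney, against 29.4% and 13.5% of all probes called in either direction. Fibroblast marker means were 0.44 to 0.53 at E18.5, -0.06 to 0.00 at P2 and -1.25 to -1.06 in adults; their part in the result was not tested.

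In liver, the organ with the lowest Mmp2 and Timp2 readings on the main probes as deposited, young samples again stood higher. Mmp2 arrays read -0.31 and -0.53 at E14, -0.15 and -0.28 at P14 and -2.29 and -3.00 in fed adults. Neither young age overlapped the adult arrays. Centred differences from adult were 1.83 ± 0.33 at E14 (adjusted p = 1.7e-06) and 2.69 ± 0.33 at P14 (adjusted p = 1.8e-10), where 61.9% and 29.9% of all probes were called (61.2% and 38.7% as deposited), and the second Mmp2 probe gave 2.17 ± 0.17 and 2.25 ± 0.17. At E14 most probes were called, so that a call there is not particular to Mmp2.

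Liver Timp2 read -0.98 and -1.38 at E14, -1.0 and -1.08 at P14 and -1.94 and -2.16 in adults on the main probe. P14 minus adult was 1.26 ± 0.23 centred (adjusted p = 8.4e-06). E14 minus adult was 0.47 ± 0.23 centred (adjusted p = 0.063) against 0.87 ± 0.21 as deposited (adjusted p = 0.00023, 61.2% of probes called), so its call depends on the centring. The second Timp2 probe was called at neither age (0.18 ± 0.30 and 0.43 ± 0.30 centred). Mmp2 changed by 1.36 ± 0.32 more than Timp2 at E14 (adjusted p = 0.00017) and by 1.42 ± 0.32 more at P14 (adjusted p = 0.00031). At P14, 11 of 16 substrates were higher and none lower (median 0.64 against -0.06 over all genes), with 29.9% of all probes called centred. At E14 7 were higher and 3 lower, a share close to that of all probes called there. Means of the fibroblast markers were -0.32 to -0.23 at E14, -0.51 to -0.44 at P14 and -1.26 to -1.07 in adults. The E14 liver is labelled as hematopoietic, and its 6 erythroid markers averaged 2.75 to 2.80 against -0.37 to -0.12 in adults; their part in the result was not tested.

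Heart at E14.5 had more Mmp2 than adult ventricle on both probes, and more Timp2 on 1 of 2. Mmp2 read 0.66 and 0.68 in the embryo and -0.37 and -0.41 in adult ventricle, and the second probe 0.65 and 0.70 against -1.01 and -1.32. Those differences were 0.95 ± 0.33 (adjusted p = 0.029) and 1.73 ± 0.17 (adjusted p = 7.4e-14) centred, with 18.2% of probes called (21.9% as deposited). As deposited the main probe was lost without heart E14.5 replicate 2 or ventricle replicate 2 (adjusted p = 0.057 and 0.068). Timp2 read 0.35 and 0.32 against -0.12 and -0.68, a difference of 0.62 ± 0.23 (adjusted p = 0.042) that was not called without ventricle replicate 2 (0.45 as deposited, adjusted p = 0.34) or with the mean of both probes (0.36, adjusted p = 0.13). The second Timp2 probe overlapped, with 0.11 and 0.04 against 0.00 and 0.20 (-0.13 ± 0.30 centred, adjusted p = 0.80). Fibroblast marker means were 0.80 to 0.81 at E14.5 and -0.43 to -0.27 in ventricle, and their part in the result was not tested. Mmp14 was higher at E14.5 too, by 0.98 ± 0.28 centred (adjusted p = 0.0056).

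Small intestine showed no change on the main probes. Mmp2 read 0.00 and -0.09 at E16.5, 0.09 and -0.48 at P1 and 0.11 and -0.99 at P14, and Timp2 -1.18 and -1.23, -0.84 and -1.24, and -0.81 and -1.71. The ages overlapped on both probes. Only the second Mmp2 probe was called, from 0.57 and 0.66 at E16.5 to -0.31 and -0.56 at P1 (-1.17 ± 0.17 centred, adjusted p = 1.2e-07, with 27.3% of probes called, or 26.8% as deposited). Neither gene was called from P1 to P14 (2.25% of probes) or from P14 to adult small intestine (18.7%), where the differences were -0.50 ± 0.26 for Mmp2 and -0.42 ± 0.17 for Timp2. Without P14 replicate 2 the last step was -1.05 for Mmp2 (adjusted p = 0.026) and -0.88 for Timp2 (adjusted p = 0.0021), and Timp2 also passed without duodenum replicate 1, ileum replicate 1 or jejunum replicate 2 (-0.51, -0.48 and -0.48, adjusted p = 0.026 to 0.045). Over all arrays left out the differences ran from -1.05 to 0.044 for Mmp2 and from -0.88 to 0.031 for Timp2.

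Bladder held high levels of both genes and skin of Mmp2, with no called change on the main probes. Adult bladder read 2.14 and 2.34 for Mmp2 and 2.10 and 2.21 for Timp2, at ranks 3 and 4 of the 88 sources. Bladder at P1 read 1.22 and 1.37, and 1.59 and 1.56. Both P1 sets lay below the adult ones, by 0.95 ± 0.31 for Mmp2 (adjusted p = 0.067) and 0.58 ± 0.21 for Timp2 (adjusted p = 0.10), with 4.7% of probes called. After quantile normalization both passed (-1.21 and -0.85), and with the array lot as a block Mmp2 did (-0.95, adjusted p = 0.028). Within the AC and AF lots, 1 array against 1, the Mmp2 differences were -0.77 and -1.12. At P1 Mmp14 was lower (-0.91 ± 0.29, adjusted p = 0.045), while 5 of 16 substrates were higher and none lower, among them Eln (2.94 ± 0.34) and Col1a1 (2.05 ± 0.36), and Lox was higher by 2.51 ± 0.44. In adult bladder the fibroblast marker mean was 1.29 to 1.53, and at P1 2.02 to 2.12. Skin read 1.01 and 1.08 for Mmp2 at E16 and 0.59 and 0.64 at P2, a difference of -0.58 ± 0.33 centred (adjusted p = 0.25), and the second probe -0.58 ± 0.17 (adjusted p = 0.022), with 8.95% of probes called (7.19% as deposited). Skin Timp2 was nearer its usual level, at 0.53 and 0.50 at E16 and 0.28 and 0.28 at P2, and was called on neither probe.

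Brain gave no common direction. Timp2 read 0.06 and 0.07 at E18.5 but 1.76 and 1.69 at P2, and the second Mmp2 probe -0.70 and -0.77 but 0.72 and 0.71, with the E18.5 arrays of the AF lot and the P2 arrays of the AC lot, so that age and lot cannot be told apart. The main Mmp2 probe read -0.83 and -1.39 at E18.5 and -1.19 and -1.03 at P2. Against the mean of 6 adult regions their mean gave 0.23 ± 0.19 for Mmp2 (adjusted p = 0.31) and -0.19 ± 0.13 for Timp2 (adjusted p = 0.21) centred, with 56.4% of probes called. As deposited the Mmp2 difference was 0.44 ± 0.18 (adjusted p = 0.036, 49.8% of probes called) and after quantile normalization -0.12, so no direction is given. The second probes were called centred, at 0.35 ± 0.10 for Mmp2 (adjusted p = 0.0022) and -0.52 ± 0.17 for Timp2 (adjusted p = 0.0078). These tests measure spread between arrays of a source, not between ages or regions. On the second Mmp2 probe the centred means were -0.78 at E18.5 and 0.58 at P2, so their average stands for neither age. Adult regions ran from -0.93 in striatum to 0.62 in cerebellum on that probe. Within the AC lot the Timp2 difference was 1.07 and within the AF lot -1.10.

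Among injured and stimulated tissues, calls were few. Folic acid injured kidney read 0.11 and -1.26 for Mmp2 against -0.98 and -1.79 in adult kidney, overlapping groups with a difference of 0.69 ± 0.33 centred (adjusted p = 0.26), while the second probe rose without overlap (-0.04 and -0.57 against -1.03 and -1.13, 0.66 ± 0.17, adjusted p = 0.0057, 7.7% of probes called, or 8.88% as deposited). Without adult replicate 1 or injury replicate 2 the main probe was called as deposited (1.22 and 1.50, adjusted p = 0.036 and 0.0037). Timp2 read -0.50 and -1.32 against -0.76 and -0.73. Mmp2 changed by 0.97 ± 0.32 more than Timp2 (adjusted p = 0.039 centred), a call lost without adult replicate 2 or injury replicate 1 (0.55 and 0.70). The adult kidney is not labelled with a strain, so strain and injury cannot be told apart.

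Regenerating liver had low levels of both genes, like the adult organ. At 6 h Mmp2 read -3.13 and -2.85 against -3.27 and -2.92 in sham liver, and Timp2 -3.12 and -2.70 against -2.59 and -2.51, with neither called (5.45% of probes called centred, 7.99% as deposited). At 24 h Mmp2 read -2.82 and -3.71, and Timp2 -2.58 and -2.92 against -1.94 and -2.16 in fed adult liver. That Timp2 difference was -0.50 ± 0.23 centred (adjusted p = 0.18, 8.14% of probes called) and -0.70 ± 0.21 as deposited (adjusted p = 0.015, 14.0% called), and was not called without adult replicate 1 or 24 h replicate 2 (-0.59 and -0.53). Ileum after resection differed from sham on no probe (0.162% of probes called), with Mmp2 at -0.50 and -0.90 against -0.48 and -0.59.

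In transgenic hyperdynamic heart Mmp2 read 0.22 and 0.49 against -0.44 and -0.45 in control heart. These arrays did not overlap. The difference of 0.62 ± 0.33 centred was not called (adjusted p = 0.22, 12.6% of probes called, or 11.5% as deposited), while as deposited it was 0.80 with adjusted p = 0.087, or 0.048 and called with the array lot as a block. Within the AC and AF lots it was 0.66 and 0.93, 1 array against 1. The second Mmp2 probe gave -0.06 ± 0.17 centred, and Timp2 read -0.90 and -0.74 against -1.12 and -0.86. In lymph node the probes of each gene opposed each other. With adjuvant the main Mmp2 probe rose from -0.70 and -1.85 to -0.03 and -0.16 (1.18 ± 0.31, adjusted p = 0.0016) and the second fell from 0.16 and 0.25 to -0.51 and -0.56 (-0.74 ± 0.16, adjusted p = 0.00011), where 39.9% of all probes were called. Timp2 went from -0.65 and -0.73 to -0.98 and -1.22 on the main probe (not called) and rose from -0.75 and -0.51 to 0.86 and 0.25 on the second (1.19 ± 0.29, adjusted p = 0.00054). The main Mmp2 probe lost its call without unstimulated replicate 2 (0.60, adjusted p = 0.21). No direction is given for either gene in lymph node.

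In the mammary gland, involution, the regression of the gland after weaning, carried more of both genes than lactation. Mmp2 read -0.90 and -1.05 in lactation and 0.76 and 0.79 in involution on the main probe, and -2.09 and -2.23 against 0.35 and 0.40 on the second. Centred, they rose by 1.43 ± 0.33 (adjusted p = 0.00021) and 2.22 ± 0.17 (adjusted p = 1.4e-18). Timp2 rose from -1.65 and -1.53 to 1.03 and 1.04 on the main probe (2.31 ± 0.23 centred, adjusted p = 2e-14), and the second probe did not follow, with 0.53 and 0.44 in lactation and 0.35 and 0.46 in involution. In this comparison 55.3% of probes were called (43.1% as deposited), against 3 of 4 probes here. Which gene changed more depends on the probe: Mmp2 minus Timp2 was -0.88 ± 0.32 on the main probes (adjusted p = 0.019) and 0.87 with the mean of both (adjusted p = 0.00038). The first of these was not called without either involution array or lactation replicate 1 (adjusted p = 0.073, 0.078 and 0.14).

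Of the other inhibitors, Timp3 rose (1.41 ± 0.28 centred) and Timp4 fell (by 0.62 ± 0.25) in involution. Among 16 substrates 5 rose and 3 fell, a share below the 55.3% of all probes called, with Fn1 (3.17 ± 0.30) and Col1a1 (2.09 ± 0.38) among those that rose, and of 11 ADAM proteases 2 rose and 7 fell. Fibroblast marker means were -1.18 to -1.12 in lactation and 0.71 to 0.87 in involution, with 6 of 7 higher, and macrophage ones -0.52 to -0.33 and 1.28 to 1.30, with 4 of 7 higher, close to the share of all probes. Their part in the result was not tested.

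Awn hair in catagen, the regression phase, was among the sources with the most Timp2, at rank 1 on the main probe (2 after centring) and 5 on the second, with arrays that overlap those of dorsal root ganglion. Timp2 read 2.30 and 2.33 in catagen and 1.41 and 1.47 in anagen, the growth phase, and Mmp2 1.43 and 1.38 against 0.49 and 0.36, with no overlap for either gene. Anagen minus catagen was -0.87 ± 0.21 for Timp2 (adjusted p = 0.0038) and -0.98 ± 0.31 for Mmp2 (adjusted p = 0.049, or 0.052 centred), with 4.95% of probes called. Mmp2 lost its call without any 1 of the 4 arrays, Timp2 without all but anagen replicate 2 (adjusted p = 0.051 to 0.068). Neither second probe was called (-0.09 ± 0.16 and -0.47 ± 0.29). Several marker lists stood lower in anagen: macrophage means were 0.12 to 0.20 against 1.33 to 1.39 (5 of 7 markers called), skeletal muscle ones 1.24 to 1.26 against 2.23 to 2.34 (3 of 5) and fibroblast ones 1.16 to 1.22 against 1.68 (1 of 7). The 1 adipocyte marker read 0.80 to 0.86 against 1.57 to 1.60 and was not called. Their part in the result was not tested.

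**Figure D3:**
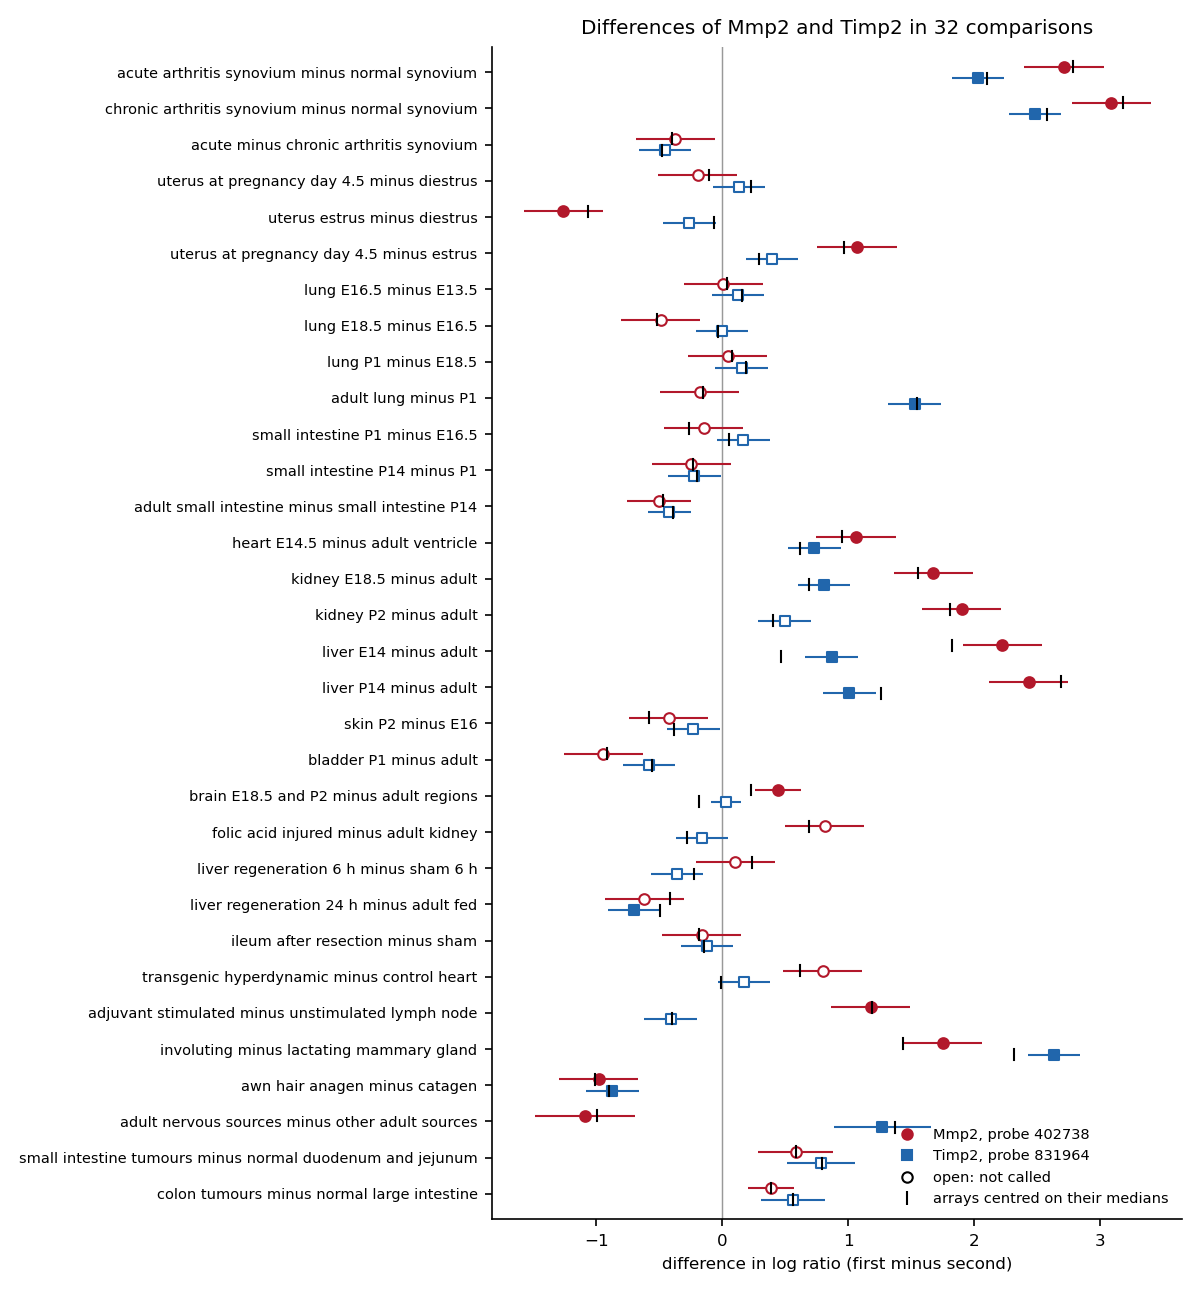
Difference in log ratio (horizontal axis, first group minus second) of the main Mmp2 and Timp2 probes in 32 comparisons; symbols are deposited values with SE as bars, filled where adjusted p is under 0.05, and short black lines give the value after centring each array. Both genes are filled and right of 0 in both arthritis rows, at 2.71 and 2.03 in acute and 3.08 and 2.48 in chronic arthritis.

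Counted on the main probes across the 32 comparisons, Mmp2 was called higher in 11 and lower in 3 as deposited. With centred arrays it was called higher in 9 and lower in 1. The share of all probes called as deposited ran from 0.162% (ileum after resection) to 61.2% (liver E14), so these counts have no common background. The deposited Mmp2 count includes brain and lymph node, for which no direction is given above. Timp2 was called higher in 9 and lower in 2, or in 8 and 1 centred. A different amount of change of both genes was called in 10 comparisons, with Mmp2 moving up more or down less in 6 of them and Timp2 in 4 (7 and 4 centred). Among the 10 are lymph node and mammary gland, where the mean of both probes turned the sign (-0.17 and 0.87). In estrus, both young kidney ages, folic acid kidney and mammary gland, the call was lost in some fits that left out 1 array. Several of these comparisons share adult kidney, adult liver or normal synovium arrays.

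In adult nervous sources Timp2 was higher than in other adult sources and Mmp2 was not. Over 8 adult nervous sources the main Mmp2 probe had source means with an average of -1.53 against -0.43 over 28 other adult sources, and Timp2 1.10 against -0.17. Both sets overlapped with the other organs. Timp2 was higher by 1.37 ± 0.39 centred (adjusted p = 0.01) and the Mmp2 difference was -0.99 ± 0.38 (adjusted p = 0.063), with 19.6% of probes called. As deposited the values were 1.27 ± 0.39 (adjusted p = 0.016) and -1.09 ± 0.40 (adjusted p = 0.046), with 20.1% called, and the Mmp2 call was lost in 22 of 36 fits that left out 1 source. The difference between the genes, -2.36 ± 0.38 (adjusted p = 1.2e-05), was called under each of the 6 settings and without any 1 of the 36 sources.

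Dorsal root ganglion, a sensory ganglion, had the highest nervous Timp2 value (2.37 and 2.24, second of 88) beside Mmp2 at -1.30 and -0.94, and without it the Timp2 difference was 1.10 with adjusted p = 0.054. Hypothalamus read 1.90 and 2.00 for Timp2 and -1.33 and -3.06 for Mmp2, and hippocampus 0.64 and 0.79 beside -2.57 and -3.39. Cerebellum was the exception for Timp2, with -0.43 and -0.39. The second Timp2 probe was higher too (0.64 ± 0.20 centred, adjusted p = 0.016), and the second Mmp2 probe was not called (-0.27 ± 0.24). Mmp14 was higher in nervous sources by 2.27 ± 0.17 centred, Timp4 by 0.55 ± 0.13, and Timp3 was not called (0.30 ± 0.26). Of 16 substrates 1 was called, Col1a1 (-1.68 ± 0.46), a share below the 19.6% of all probes called centred.

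Intestinal tumours gave no call on the main probes. The 10 small intestine tumours had Mmp2 source means of 0.05 on average against -0.79 in 3 normal sources, and Timp2 -0.17 against -1.34. Tumour and normal means mix title forms, and proximal jejunum had Mmp2 at 0.056 in the # form and -1.22 in the AF lot. With the # form of the titles as a covariate the differences were 0.58 ± 0.30 (adjusted p = 0.37) and 0.79 ± 0.27 (adjusted p = 0.17), with 1.06% of probes called. Duo48 and Jej48 share a number in their labels, as do Duo59 and Jej59, Duo43 and Col43, and Duo72 and Col72. What a shared number means is not given, so these tumours may not be independent. With it as a random block, both genes and their difference stayed without a call in small intestine tumours. The 4 colon tumours had Mmp2 at 0.16 to 1.20 on single arrays against -0.67 to 0.36 in normal cecum and colon. No normal large intestine source had the # form, so the covariate took up Col43 and Col72. The tested differences therefore rest on Col1 and Col2, at 0.39 ± 0.18 for Mmp2 (adjusted p = 0.23) and 0.56 ± 0.25 for Timp2 (adjusted p = 0.22). Mean Mmp2 was 0.21 in Col1 and 0.31 in Col2, against 1.055 in Col43 and 0.86 in Col72. The second Mmp2 probe was called in colon tumours (1.16 ± 0.23, adjusted p = 0.021, 7.15% of probes called) and could not be tested in the small intestine. It had values in 3 colon tumours, but the covariate took up Col43, so this call also rests on Col1 and Col2. In the same fit, which compares Col1 and Col2 with normal tissue, Fn1 was higher (2.63 ± 0.38) and Mmp14 lower (-0.81 ± 0.21, adjusted p = 0.046).

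Over all 88 sources, Mmp2 means as deposited on the main probe ran from 3.29 in chronic arthritis to -3.27 in liver 24 h into regeneration. After centring, hippocampus was lowest (-2.77), with liver at 24 h next (-2.68). After both arthritis sources and adult bladder came lung P5 (1.65) and lung P12 (1.47). At the low end, hippocampus (-2.98) and activated CD4 T cells (-2.81, 1 array) stood above regenerating and sham liver but below adult fed liver (-2.65). On the second Mmp2 probe the T cells read 0.76, at rank 20 of 80, so the probes disagree there. Hippocampus read -0.84 on that probe. Timp2 means ran from 2.31 in catagen hair to -2.91 in liver 6 h into regeneration, with dorsal root ganglion (2.31), chronic arthritis (2.16), bladder (2.15) and hypothalamus (1.95) next at the top. Of 87 neighbouring pairs in each order, the arrays did not overlap in 10 for Mmp2 and 11 for Timp2, so the order of most neighbours is not resolved. Of the 10 highest Mmp2 sources 9, and of the 10 lowest 9, stayed there after centring.

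A few sources between the ends, chosen after their values were seen, are given as values of the main probes, each against the usual level of its own probe. Thyroid read 1.04 and 1.10 for Timp2, and -0.39 and -0.40 for Mmp2. Epididymis tail read 0.86 and 1.07 for Timp2, and -1.28 and -1.40 for Mmp2. Brown adipose tissue had Timp2 at 0.90 and 1.20 and Mmp2 at 0.26 and 0.19. Spleen was low for both (-1.83 and -1.47 for Timp2, -1.92 and -1.59 for Mmp2), and pancreatic islets, on 1 array, had Mmp2 at 0.53 and Timp2 at -0.91. Heart atrium stood above ventricle on both main probes, with 0.24 and 0.20 for Mmp2 and 0.54 and 0.70 for Timp2. The second Mmp2 probe had the opposite sign in epididymis tail (0.19 and 0.40), brown adipose tissue (-0.59 and -0.32), islets (-0.84) and atrium (-0.72 and -0.66). In thyroid and spleen it was below 0, like the main probe.

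**Figure D4:**
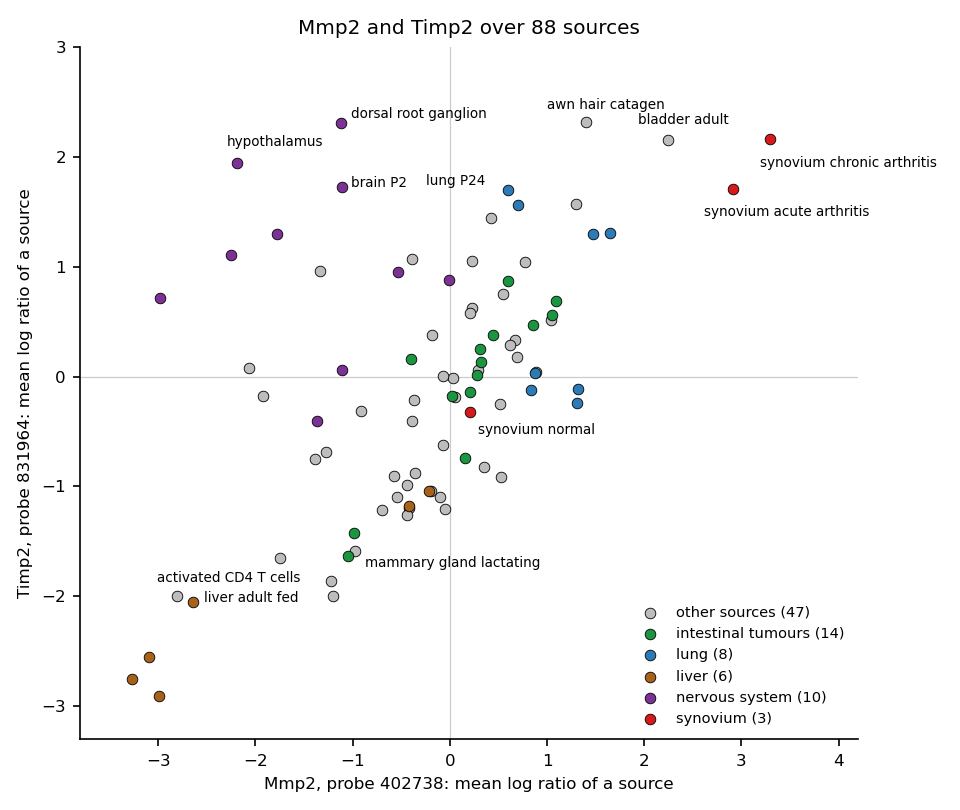
Mean log ratio of each of 88 sources on the main Mmp2 probe (horizontal axis) and the main Timp2 probe (vertical axis), coloured by organ. Most sources run from liver at the lower left to arthritis at the upper right, while the 10 nervous sources have Mmp2 below 0 (nucleus accumbens at -0.007) and, except cerebellum, Timp2 above 0.

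As a description, the main probes correlated over 88 source means with Pearson's r = 0.54 and Spearman's rho = 0.49, and with r = 0.48 without the sources farthest out, liver at 24 h and chronic arthritis. These points share a reference and are not independent. Other probe pairs of the genes correlated less: r was 0.41 for the main Mmp2 and second Timp2 probes. It was 0.45 for the second Mmp2 and main Timp2 probes, and 0.15 for the second probes of both genes. Without the 10 nervous sources, a choice made after the values were seen, r of the main probes was 0.79 over 78 sources. Among 5667 genes compared over the sources, Timp2 ranked 215 in likeness to Mmp2. Most like Mmp2 were Col5a2 (r = 0.88), Col1a1 (0.80), the collagen receptor Ddr2 (0.79), Cmtm3 (0.79) and Ppic, a peptidyl-prolyl isomerase of the secretory pathway (0.78). Most like Timp2 were the growth factor receptor Fgfr1 (0.77), the protocadherin Pcdhga12 (0.74), Cbx6 of the Polycomb group (0.71), Islr (0.70) and the cadherin Cdh13 (0.69). There were 22 genes with r above 0.7 to Mmp2 and 4 to Timp2.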

How the data were processed

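RNA of 88 mouse tissue sources was compared with a universal reference on 2-channel arrays, mostly 2 per source. The deposited values are log2 ratios by their likely reading; per the labels the second channel is the reference, while for base, dyes, background correction and normalization the sources used here give nothing. Probes were named through the platform annotation (7540 with 1 symbol, 14 with several, 1180 with none). All columns matched a sample, and no arrays were identical. The number of arrays limits the precision.

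The members, lists, tests and named-gene rule (all probes of both genes, up to 4 called list members by size, the 5 genes most alike) were chosen with earlier results of these data known. limma 3.58.1 in R 4.3.3 fitted 1 mean per source over all arrays, which share 1 spread estimate. Nervous and tumour comparisons used source means, the latter with the title form as covariate. Probes with values on at least 80% of arrays or sources were tested, with Benjamini-Hochberg adjustment over all and a threshold of 0.05. Centred values come first where centring shifted the all-probe median by more than 0.1. Checked on simulated data for acute arthritis (8638 probes), 62% of 2-fold and 98% of 4-fold changes were found, with 6 false of 166 calls. The same check gave 12 false of 187 calls for uterus in estrus against diestrus, and 13 of 176 for small intestine tumours. There, 75% and 65% of 2-fold changes were found. Tables were handled in Python 3.11.15 with pandas 2.3.3 and numpy 2.4.6, and drawn with matplotlib 3.10.9.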

Additional observations from a re-analysis of the deposited data

How the results depend on the processing

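Settings changed 1 choice at a time. Calls or directions that moved were these. After quantile normalization, Mmp2 minus Timp2 passed in acute arthritis (0.89) and in pregnancy against diestrus (-1.05), bladder passed for Mmp2 (-1.21) and Timp2 (-0.85), brain turned sign for Mmp2 (-0.12) and Timp2 (-0.30), and Timp2 at 24 h of regeneration (-0.25), Mmp2 minus Timp2 in mammary gland (-0.71) and nervous Mmp2 (-0.86) lost their calls. The mean of both probes turned the sign of Mmp2 minus Timp2 in lymph node (-0.17) and mammary gland (0.87). It added calls for that difference in acute arthritis (0.85), intestine P1 (-0.76), heart E14.5 (1.10), brain (0.64) and regeneration at 6 h (0.67). It also added Mmp2 in intestine P1 (-0.60), folic acid kidney (0.80) and colon tumours (0.78), and Timp2 in adult intestine (-0.45) and regeneration at 6 h (-0.52). It ended those of the difference in estrus (-0.41), of Timp2 in heart E14.5 (0.36), kidney E18.5 (0.33) and regeneration at 24 h (-0.41), and of Mmp2 in lymph node (0.22), hair (-0.53) and nervous sources (-0.73). Centring ended Mmp2 in pregnancy against estrus (0.97), brain (0.23), hair (-1.01) and nervous sources (-0.99), and Timp2 in liver E14 (0.47) and at 24 h of regeneration (-0.50), and added the difference in brain (0.41). It also narrowed the span of source means to 6.03 for Mmp2 and 4.57 for Timp2.

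A fit of the compared arrays alone called Mmp2 minus Timp2 in acute (0.68) and chronic arthritis (0.60), and skin Mmp2 (-0.43) and Timp2 (-0.23). It ended Mmp2 in pregnancy against estrus (1.07), kidney P2 (1.90), brain (0.44) and lymph node (1.18), Timp2 at 24 h of regeneration (-0.70), and the difference in kidney E18.5 (0.87), kidney P2 (1.41), folic acid kidney (0.97) and lymph node (1.59). Complete probes alone called bladder Mmp2 (-0.95, adjusted p = 0.05) and ended nervous Mmp2 (-1.09). The array lot as a block called Mmp2 in bladder (-0.95) and transgenic heart (0.80), and the difference in brain (0.44).

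Leaving out 1 array or source moved Mmp2 from -1.40 to -1.12 in estrus, 0.93 to 1.21 in pregnancy against estrus, -1.05 to 0.044 in adult intestine, 1.04 to 1.08 in heart E14.5, 0.30 to 0.58 in brain, 0.13 to 1.50 after folic acid, 0.60 to 1.75 in lymph node, -1.04 to -0.92 in hair and -1.31 to -0.89 in nervous sources. Timp2 moved from -0.88 to 0.031 in adult intestine, 0.45 to 1.01 in heart E14.5, -0.87 to -0.53 at 24 h of regeneration, -0.90 to -0.84 in hair and 1.10 to 1.49 in nervous sources. The difference moved from -1.15 to -0.86 in estrus, 0.45 to 1.29 in kidney E18.5, 0.98 to 1.83 in kidney P2, 0.27 to 0.56 in brain, 0.55 to 1.40 after folic acid and -1.02 to -0.75 in mammary gland. The arthritis calls of both genes were kept in each of these fits. The cause of these moves was not tested. Of the 12 arrays of adult brain regions none was left out singly, and the mean of both probes gave no Mmp2 value for small intestine tumours. No paired analysis was possible because replicate numbers were given in accession order only, and the array lot was fitted as the block instead. With 2 arrays in most sources, the number of arrays limits the precision.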
